A study of Arabidopsis thaliana with 24 samples.

Results

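Glucosinolates are sulfur-containing defence compounds of Arabidopsis and its relatives, and the 33 genes described here are those listed for the enzymes and regulators that make them. They were taken as the rows of the count table that carry 33 listed locus identifiers, out of 33602 loci in the table. All 33 passed the filter on low counts that left 20347 genes to test. They comprise 20 genes of the aliphatic branch, which starts from methionine, 10 genes of the indolic branch, which starts from tryptophan, and 3 genes whose enzymes serve both.

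The study sequenced RNA from shoots of 3-week-old seedlings of 4 genotypes in the Columbia-0 (Col-0) ecotype. These were the double mutant cat2shr, the single mutants cat2 and shr, and the wild type Col-0. CAT2 encodes the main catalase of leaf peroxisomes, which removes the hydrogen peroxide made in photorespiration, and SHR encodes SHORT-ROOT, a transcription factor known from the patterning of the root and of the cells around the veins. The mutant alleles are not named in the labels. All plants had grown for 21 days on agar medium with 1% sucrose at 21 °C under 16 h of light and 8 h of dark. The stressed plants were then kept for 24 h in plates sealed with Parafilm, which restricts gas exchange, under continuous light, and the 0 h plants were not. Every genotype had 3 replicates per time, which gave 8 groups and 24 libraries. No group stayed unsealed for 24 h, so the effects of sealing, of continuous light and of the time that passed cannot be told apart.

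In the aliphatic branch, methionine is first lengthened. BCAT4 turns it into a keto acid, BAT5 carries that acid into the chloroplast, and the methylthioalkylmalate synthases MAM1 and MAM3, the isopropylmalate isomerase subunits IIL1, IPMI1 and IPMI2 and the dehydrogenase IMD1 add carbon to it. In the core pathway, cytochromes P450 of the CYP79 family make an aldoxime (CYP79F1 and CYP79F2 from methionine derivatives, CYP79B2 and CYP79B3 from tryptophan) and CYP83A1 or CYP83B1 oxidises it. The peptidase GGP1 and the C-S lyase SUR1 follow, then the glucosyltransferases UGT74B1 and UGT74C1 and the sulfotransferases SOT16, SOT17 and SOT18. FMO GS-OX1 and FMO GS-OX3 alter aliphatic side chains, and CYP81F1, CYP81F2 and the methyltransferase IGMT1 alter the indole ring. AOP2 alters aliphatic side chains in other ecotypes and is annotated as a transcribed pseudogene in Col-0, but is counted here with the aliphatic genes. MYB28, MYB29 and MYB76 are the known regulators of the aliphatic genes, and MYB34, MYB51 and MYB122 those of the indolic genes.

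Library totals ranged from 26.43 to 40.11 M counts. Levels are in CPM, the counts of a gene for each M counts sequenced after scaling by the trimmed mean of M-values (TMM). CAT2 counts followed the labels, at 13.1 to 32.5 CPM in the cat2shr and cat2 libraries, against 126 to 1086 CPM in the shr and Col-0 libraries. SHR was at 0.429 to 1.07 CPM in the cat2shr and shr libraries, against 4.41 to 10.8 CPM in the cat2 and Col-0 libraries. The 6 leaf mesophyll markers summed to at least 12170 CPM in every library, and the 8 root markers to at most 2.40 CPM, with 1 to 7 of them at 0 in a library, which goes with the shoot label. Replicate 1 of shr at 0 h had the most genes over 2-fold from the mean of the other libraries of its group, 668. For the glucosinolate genes, replicate 2 of shr at 0 h was high for indolic members (median log2 0.80 above the other libraries of its group). Replicate 3 of cat2shr at 24 h was high for aliphatic members (median log2 0.81 above, on the same measure). Many of the calls that are lost without these libraries, but not all, are named beside their values.

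The aliphatic branch stood lower at 24 h than at 0 h in each genotype, while the indolic branch split into genes that rose and genes that fell. The 20 aliphatic genes together took 0.0313% ± 0.0040 of all counts in cat2shr at 24 h and 0.0561% ± 0.0023 in cat2shr at 0 h (SD, n = 3 each). In cat2 they took 0.0224% ± 0.0022 at 24 h and 0.149% ± 0.015 at 0 h, the widest gap of the 4 genotypes. In shr they took 0.0366% ± 0.0029 at 24 h and 0.0694% ± 0.0092 at 0 h, and in Col-0 0.0351% ± 0.0023 at 24 h and 0.124% ± 0.0075 at 0 h. The 24 h means of the 4 genotypes lay within 0.0224% to 0.0366%, whereas the 0 h shares of cat2shr and shr were lower than those of cat2 and Col-0. A share weights each gene by its counts, and IIL1, described below, averaged 184 CPM over all 24 libraries. The 20 aliphatic genes together summed to 207 to 373 CPM in the 24 h libraries. The 24 h aliphatic shares therefore follow IIL1 in large part and say less about the other aliphatic genes. The 10 indolic genes took 0.0342% ± 0.0066 at 24 h and 0.0468% ± 0.0029 at 0 h in cat2shr, and 0.0490% ± 0.0095 at 24 h and 0.0790% ± 0.0047 at 0 h in cat2. They took 0.0330% ± 0.0048 at 24 h and 0.0476% ± 0.017 at 0 h in shr, and 0.0215% ± 0.0050 at 24 h and 0.0297% ± 0.0069 at 0 h in Col-0, where indolic genes took the smallest share at either time.

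**Figure D1:**
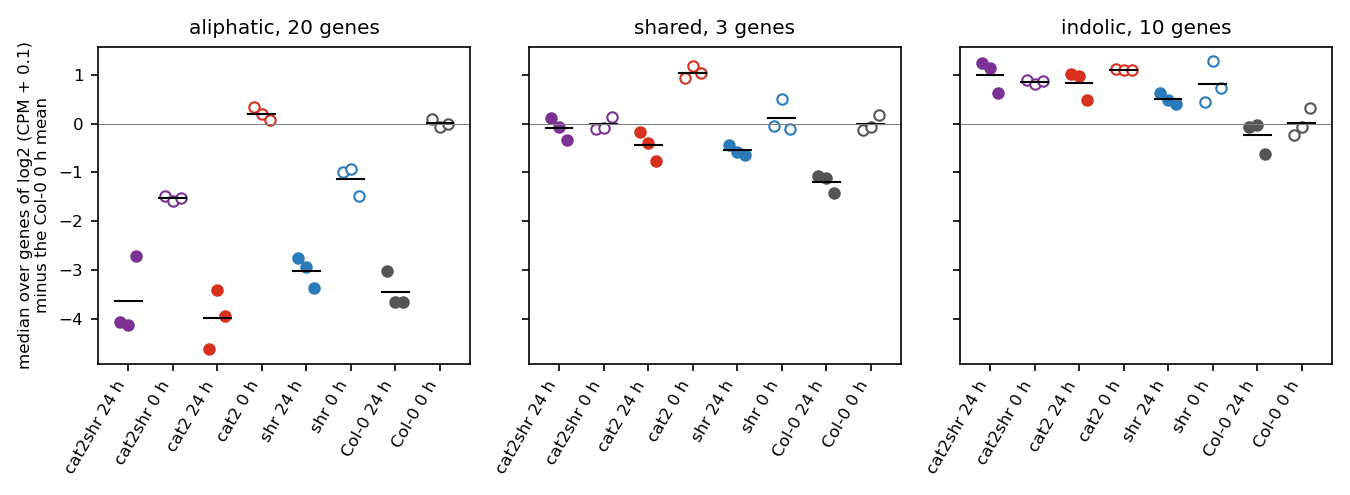
Median level of the aliphatic, shared and indolic genes in each of the 24 libraries, as log2 (CPM + 0.1) minus the Col-0 0 h mean of each gene, with 24 h groups as filled and 0 h groups as open circles and a line at each group's mean. In the aliphatic panel the 24 h libraries lie between -4.63 and -2.71 and the 0 h libraries between -1.58 and 0.34, and in the indolic panel the 2 times overlap.

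The stress response of each genotype, 24 h over 0 h, was tested by edgeR's quasi-likelihood test, and a gene is called changed at a Benjamini-Hochberg adjusted p under 0.05 over all 20347 genes. In cat2shr 18 of 20 aliphatic genes fell and 1 rose (median log2 -2.08), when 64.4% of all genes tested were called, as 31.7% fell and 32.7% rose. In cat2 all 20 fell (median log2 -4.13), when 75% of all genes tested were called, as 36.3% fell and 38.7% rose. In shr 18 fell and 0 rose (median log2 -1.80), when 41.3% of all genes tested were called, as 20.9% fell and 20.4% rose, and in Col-0 all 20 fell (median log2 -3.47), when 59.3% of all genes tested were called, as 29.6% fell and 29.7% rose. The median over all genes tested lay between -0.02 and 0.03 in these comparisons. Of the indolic genes, 3 of 10 fell and 5 rose in cat2shr (median log2 0.21), and 4 fell and 5 rose in cat2 (median log2 0.13). In shr 4 fell and 1 rose (median log2 -0.63), and in Col-0 4 fell and 4 rose (median log2 -0.22). The 3 shared genes fell in cat2, shr and Col-0, whereas in cat2shr 1 rose and 2 were not called. With 1 library left out at a time, the members called numbered 24 to 28 of 33 in cat2shr, 31 to 33 in cat2, 21 to 26 in shr and 29 to 31 in Col-0. The lowest count in shr came without replicate 2 at 0 h.

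**Figure D2:**
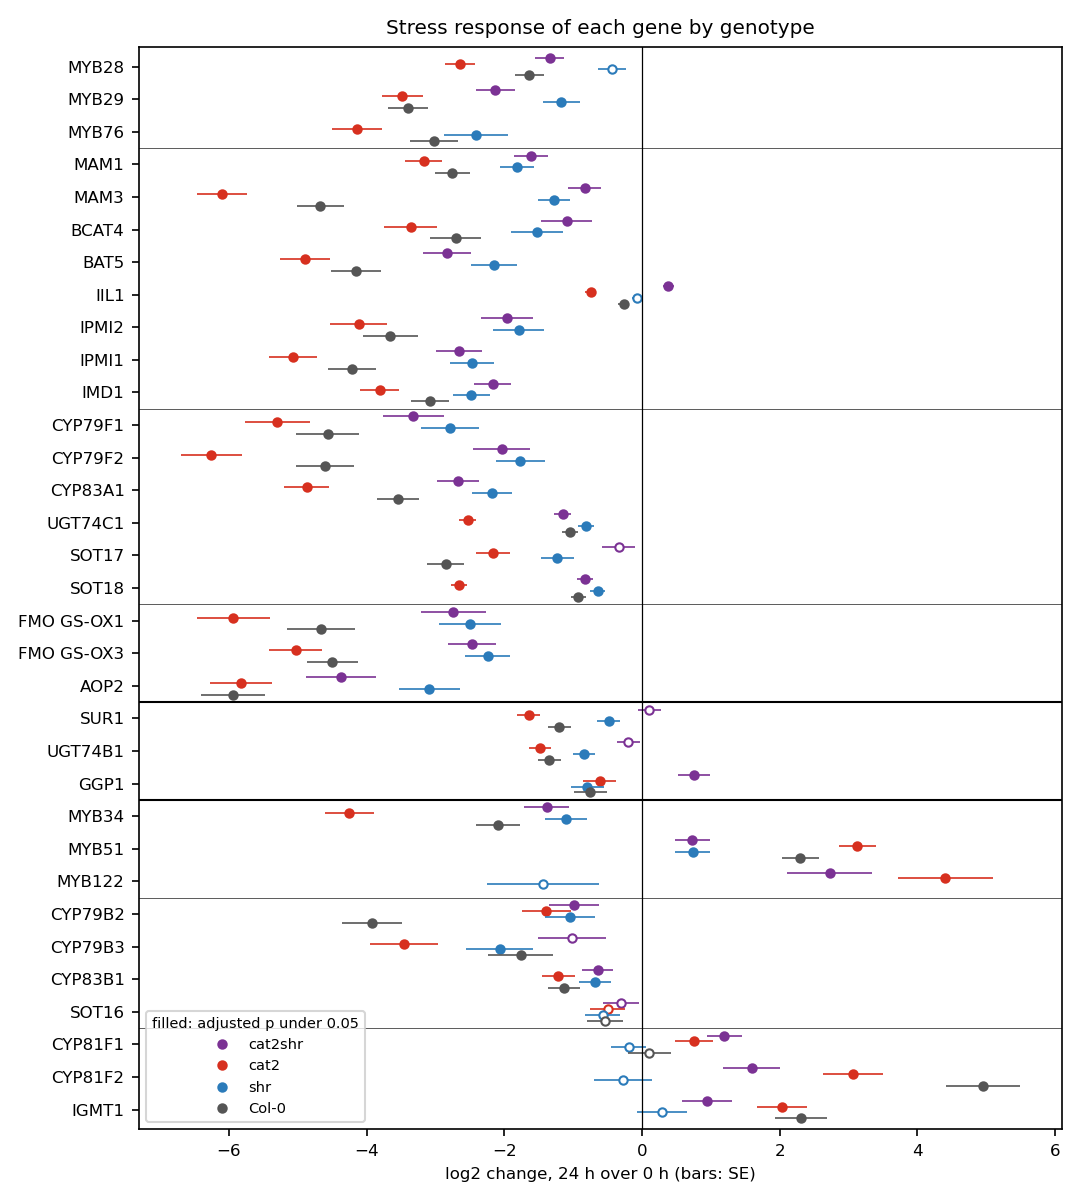
Log2 change at 24 h over 0 h of each of the 33 genes in cat2shr, cat2, shr and Col-0, with bars of 1 SE and filled points for an adjusted p under 0.05. The aliphatic genes in the upper block lie left of 0 apart from IIL1 in cat2shr (log2 0.38), and MYB76 in cat2shr and MYB122 in Col-0 are not drawn because a group held 3 counts or fewer.

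Genotypes were also compared at each time. At 0 h, cat2shr was lower than cat2 for 19 of 20 aliphatic genes and higher for none (median log2 -1.58), when 34.9% of all genes tested were called, as 17.8% were lower and 17.2% higher. For the same pair 2 of 3 shared genes were lower, and 3 of 10 indolic genes were lower and 2 higher. At 0 h, cat2 was lower than Col-0 for 1 aliphatic gene and higher for 4, when 23.3% of all genes tested were called, as 11.8% were lower and 11.5% higher. All 3 shared genes and 6 of 10 indolic genes were higher in cat2 (indolic median log2 1.23). These cat2 counts depend on single libraries, since the members called numbered 14 with all libraries, 9 without Col-0 replicate 1 and 8 without Col-0 replicate 2 or without cat2 replicate 2. Over all genes tested, the same fits called 4741 with all libraries, 2988 and 2994 without Col-0 replicate 1 or 2, and 3048 without cat2 replicate 2. At 0 h, shr was lower than Col-0 for 16 aliphatic genes and higher for 1 (median log2 -1.18), when 45.3% of all genes tested were called, as 24.1% were lower and 21.3% higher. In shr 6 of 10 indolic genes and 1 of 3 shared genes were higher and none lower (indolic median log2 0.92). The comparisons of cat2 and of shr with Col-0 share the Col-0 libraries.

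At 24 h, cat2shr was lower than cat2 for 1 aliphatic gene and higher for 6, when 55.1% of all genes tested were called, as 28.1% were lower and 27% higher. For that pair 2 shared genes were higher, and 3 indolic genes were lower and 1 higher. At 24 h, cat2 was lower than Col-0 for 5 aliphatic genes and higher for 1, when 64.1% of all genes tested were called, as 32.7% were lower and 31.4% higher. In cat2 7 indolic genes were higher and 1 lower (median log2 1.24), and 2 shared genes were higher. At 24 h, shr was lower than Col-0 for 3 aliphatic genes and higher for 6, when 52.7% of all genes tested were called, as 26.9% were lower and 25.8% higher. With 1 library left out at a time, the aliphatic genes called higher numbered 2 to 6 and those lower 2 to 3. MYB29, IPMI1, CYP79F2 and FMO GS-OX3 were not called without Col-0 replicate 3 at 24 h. Calls over all genes then went from 10718 to 9334. All 3 shared genes were higher in shr, and 4 indolic genes were higher and 2 lower. The share of aliphatic genes called was below that of all genes in each of these 24 h comparisons.

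The size of the stress response itself was compared between genotypes as a difference of log2 changes. The response of cat2shr lay above that of cat2 for 18 of 20 aliphatic genes, for all 3 shared genes and for 2 indolic genes, and below it for 1 indolic gene, when 30.9% of all genes tested were called (15.6% above). A value above means here that the fall was smaller in cat2shr, or turned to a rise. The response of shr lay above that of Col-0 for 13 aliphatic genes, 1 shared gene and 1 indolic gene and below it for 4 indolic genes, when 25.7% of all genes were called (12.6% above). The response of cat2 lay below that of Col-0 for 5 aliphatic and 3 indolic genes and above it for 1 indolic gene, when 38.2% of all genes were called (19.4% below). The response of cat2shr lay above that of shr for 2 aliphatic, 2 shared and 3 indolic genes and below it for 1 aliphatic gene, when 35.3% of all genes were called. That last count, 8 members, was 5 without replicate 2 of shr or of cat2shr at 24 h and 13 without replicate 3 of cat2shr at 24 h.

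**Figure D3:**
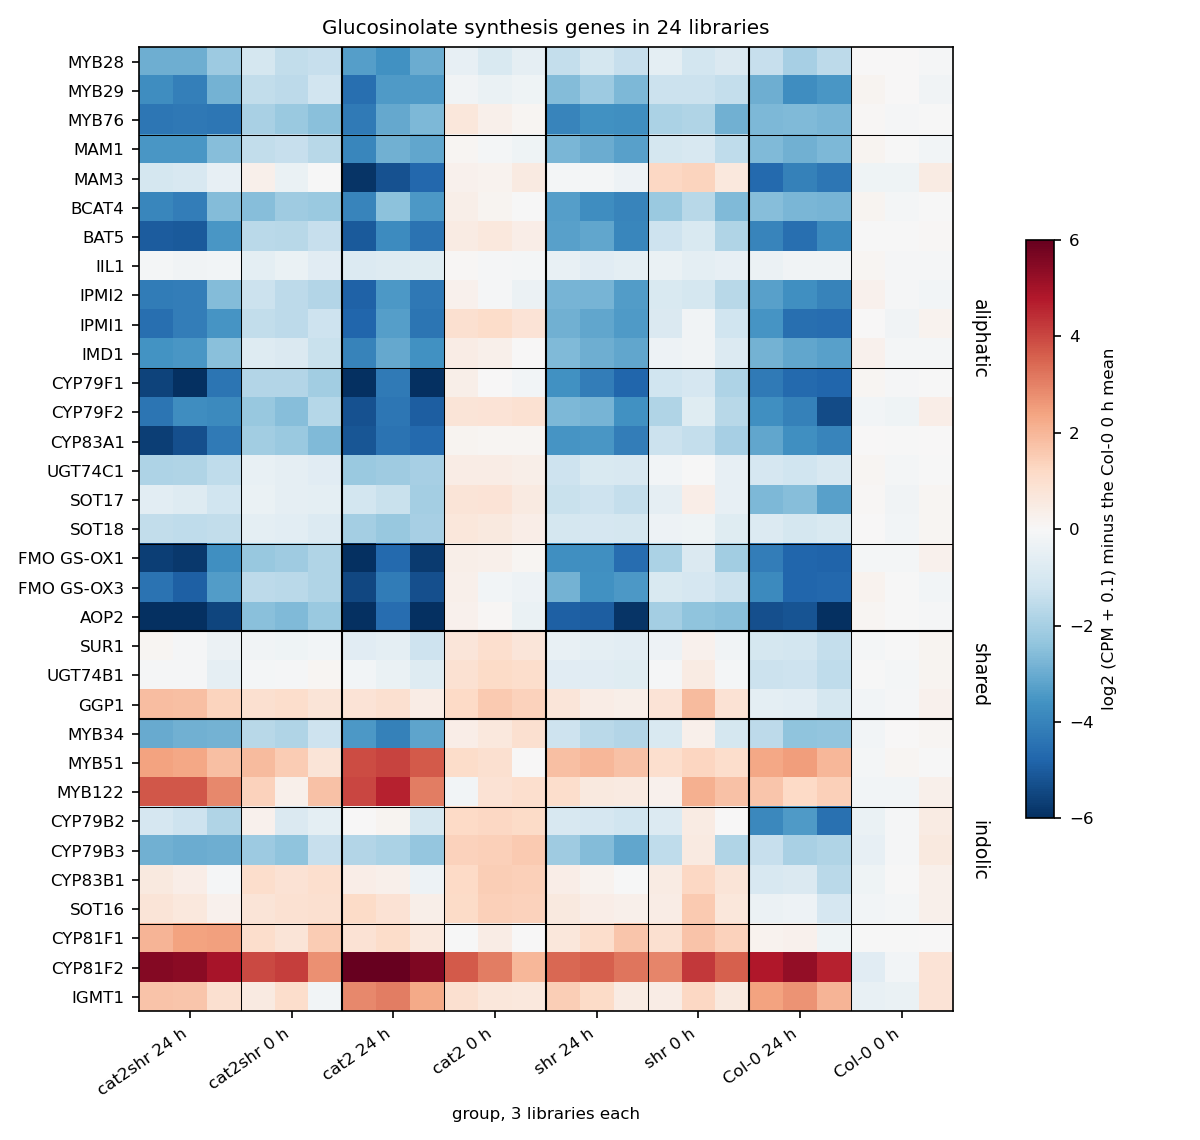
Level of each of the 33 genes in each of the 24 libraries as log2 (CPM + 0.1) minus the Col-0 0 h mean of that gene, blue for lower and red for higher with colours capped at 6 in either direction, with 3 columns per group and lines between branches and roles. The aliphatic rows are blue in the 24 h columns, palest for IIL1 and, in cat2shr and shr, for MAM3. The rows of MYB51, CYP81F2 and IGMT1 are red at 24 h in each genotype by group means, palest in shr.

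Markers of cell types moved with time and genotype beside these genes. The 6 mesophyll markers summed to 14560 to 18139 CPM in cat2shr at 24 h and 26886 to 33517 CPM at 0 h, to 12170 to 16141 CPM in cat2 at 24 h and 32274 to 33980 CPM at 0 h, and to 20929 to 26799 CPM in shr at 24 h and 38190 to 38595 CPM at 0 h. In Col-0 they summed to 28338 to 37527 CPM at 24 h and 50792 to 52345 CPM at 0 h, so this sum too was lower at 24 h in each genotype. Of the 6 mesophyll markers, 3 were called lower in Col-0 and 3 were not called (highest log2 0.40), where 29.6% of all genes tested fell. All 6 were called lower in cat2, where 36.3% fell, and 5 in shr, where 20.9% fell. The 5 phloem markers summed to 321 to 386 CPM in cat2 at 24 h and 444 to 455 CPM at 0 h, and to 355 to 403 CPM in shr at 24 h and 535 to 633 CPM at 0 h. In cat2shr (485 to 538 CPM at 24 h and 449 to 585 CPM at 0 h) and in Col-0 (457 to 488 CPM at 24 h and 406 to 463 CPM at 0 h) the phloem sums at the 2 times overlapped. By gene, 1 phloem marker was called lower and 3 higher in Col-0, where 29.6% of all genes tested fell and 29.7% rose. The 4 markers of guard and myrosin cells summed to 88.7 to 92.3 CPM in cat2shr, 102 to 105 CPM in cat2, 90.5 to 96.7 CPM in shr and 125 to 128 CPM in Col-0 at 24 h, and to 82.0 to 83.0, 100.5 to 108, 82.4 to 88.2 and 113 to 119 CPM in the same order at 0 h. In the Col-0 response 1 of these 4 was called lower (log2 -1.84) and 3 higher. The 5 xylem markers summed to 31.7 to 42.4 CPM in cat2 at 24 h and 54.9 to 66.0 CPM in cat2 at 0 h, and between 46.4 and 72.3 CPM elsewhere, and the 5 floral markers to at most 5.84 CPM. The part of cell composition in the results was not tested, and in whole shoots fewer cells of a type and less RNA per cell cannot be told apart.

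MYB28 (AT5G61420, chr5:24689069-24691187, minus strand, in the TAIR10.1 annotation of RefSeq, as are all positions below) is the main activator of aliphatic genes. MYB28 stood at 9.79, 9.65 and 16.3 CPM in cat2shr at 24 h, against 35.4, 26.8 and 28.2 CPM in cat2shr at 0 h. In cat2 it was at 7.44, 5.94 and 9.46 CPM at 24 h and 52.5, 39.3 and 51.5 CPM at 0 h. The libraries of the 2 times did not overlap in either, and both falls were called (log2 -1.34 ± 0.21, edgeR adjusted p = 2.09e-05 in cat2shr; log2 -2.64 ± 0.22, edgeR adjusted p = 3.23e-09 in cat2). In shr it was at 27.9, 36.3 and 28.2 CPM at 24 h and 49.3, 34.4 and 40.6 CPM at 0 h. In Col-0 it was at 28.5, 19.0 and 24.7 CPM at 24 h and 76.4, 75.8 and 71.7 CPM at 0 h. In shr the times overlapped and no change was called (log2 -0.43 ± 0.20, edgeR adjusted p = 0.101), whereas in Col-0 they did not overlap and MYB28 fell (log2 -1.63 ± 0.21, edgeR adjusted p = 2.16e-06). The response of MYB28 was weaker in shr than in Col-0 (difference in log2 change 1.21 ± 0.29, edgeR adjusted p = 0.00541) and weaker in cat2shr than in cat2 (1.31 ± 0.30, edgeR adjusted p = 0.00298). It was stronger in cat2 than in Col-0 (-1.01 ± 0.30, edgeR adjusted p = 0.0115) and in cat2shr than in shr (-0.91 ± 0.29, edgeR adjusted p = 0.0219, 0.0546 without replicate 2 of shr at 24 h). At 0 h MYB28 was lower in cat2shr than in cat2, in cat2 than in Col-0 and in shr than in Col-0 (log2 -0.66 ± 0.20, -0.64 ± 0.20 and -0.85 ± 0.20), although the first 2 calls were lost without single libraries.

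MYB29 (AT5G07690, chr5:2446669-2448584, plus strand) and MYB76 (AT5G07700, chr5:2450027-2451807, plus strand) lie next to each other and assist MYB28. At 24 h MYB29 measured 1.48, 1.12 and 2.90 CPM in cat2shr, against 7.59, 7.03 and 9.55 CPM in cat2shr at 0 h. The cat2 libraries held 0.827, 1.91 and 1.88 CPM at 24 h and 18.2, 16.1 and 17.6 CPM at 0 h. The shr libraries held 3.39, 4.49 and 3.13 CPM at 24 h and 8.69, 8.46 and 7.66 CPM at 0 h. None of these pairs of groups overlapped. The Col-0 libraries held 2.69, 1.51 and 1.81 CPM at 24 h and 23.7, 21.4 and 18.4 CPM at 0 h. These did not overlap either, and MYB29 fell in all 4 genotypes (log2 -2.13 ± 0.28 in cat2shr, -3.48 ± 0.29 in cat2, -1.17 ± 0.27 in shr and -3.39 ± 0.29 in Col-0). The response was weaker in shr than in Col-0 (difference 2.22 ± 0.39, edgeR adjusted p = 0.000548) and in cat2shr than in cat2 (difference 1.35 ± 0.40, edgeR adjusted p = 0.0155, 0.0813 without replicate 3 of cat2shr at 24 h). Per length of transcript, MYB76 was the least abundant aliphatic regulator in Col-0 at 0 h. Its level was 0.0265, 0.0294 and 0.0268 CPM in cat2shr at 24 h and 0.551, 0.435 and 0.343 CPM in cat2shr at 0 h. Levels in cat2 were 0.0344, 0.205 and 0.285 CPM at 24 h and 3.99, 3.03 and 2.69 CPM at 0 h. Levels in shr were 0.0651, 0.103 and 0.0949 CPM at 24 h and 0.577, 0.625 and 0.248 CPM at 0 h. The cat2shr libraries at 24 h held 3 MYB76 counts in all, so no fold is given there. Levels in Col-0 were 0.295, 0.310 and 0.281 CPM at 24 h and 2.58, 2.31 and 2.40 CPM at 0 h. The times overlapped in none of the genotypes. MYB76 fell, with a log2 change of -4.14 ± 0.36 in cat2, -2.41 ± 0.47 in shr and -3.03 ± 0.35 in Col-0, and its 0 h level was lower in cat2shr relative to cat2 (log2 -2.85 ± 0.32) and in shr relative to Col-0 (log2 -2.33 ± 0.31).

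**Figure D4:**
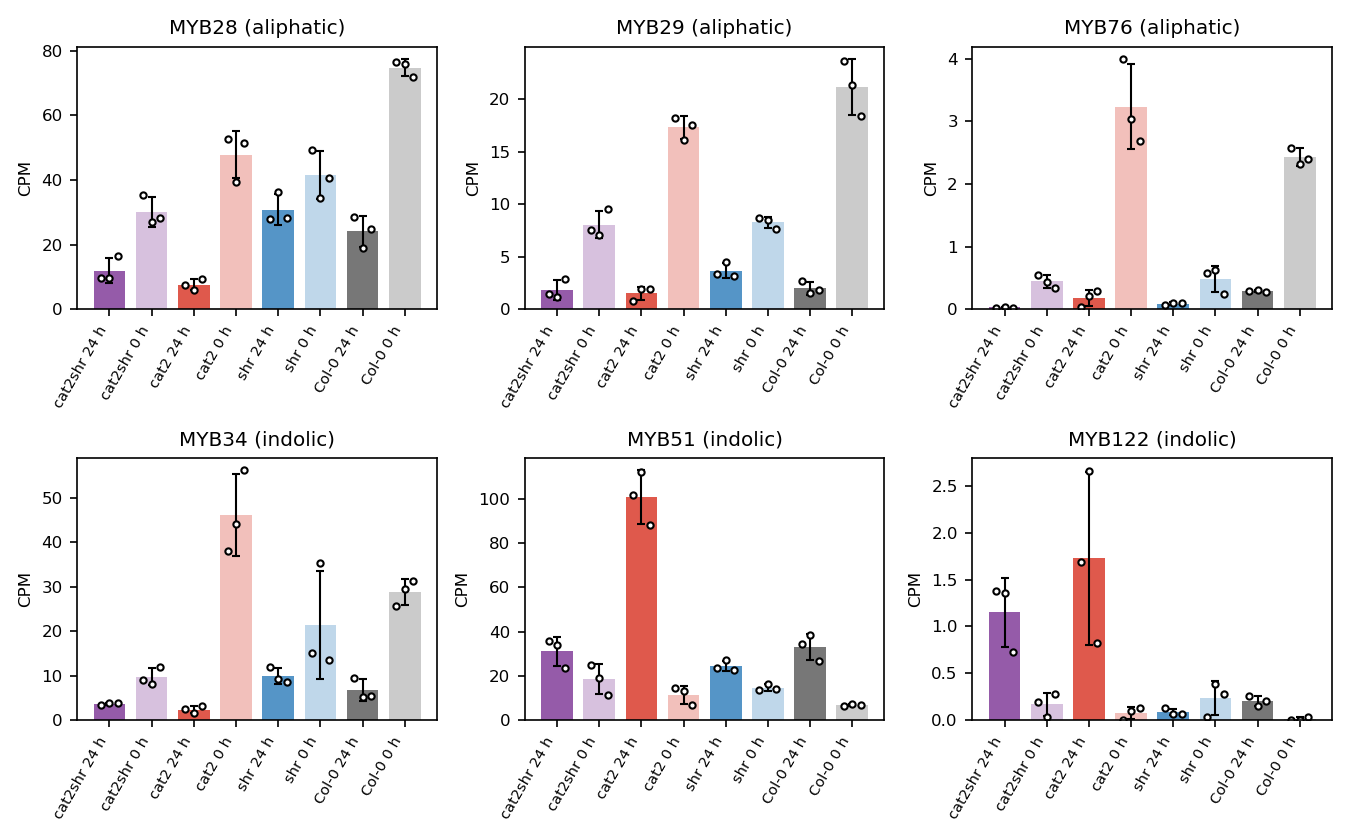
CPM of the 6 MYB regulators in each library, with bars for group means, error bars of 1 SD (n = 3) and open points for libraries, darker bars for 24 h and lighter for 0 h. The 3 aliphatic regulators and MYB34 are highest in Col-0 or cat2 at 0 h, and MYB51 (102, 112 and 88.3 CPM) and MYB122 are highest in cat2 at 24 h.

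Windows of 250 bases before the annotated gene start are shown for 4 members, to let the sequence next to the genes that moved together be read; they were chosen after the values were seen. CYP83A1, IPMI2 and CYP79F2 are among the falling aliphatic genes, and CYP81F2 is among the rising indolic ones. Each of these 4 windows holds motifs marked below, whereas those of MYB28, MAM1, MYB51 and MYB122, for example, hold none. The windows shown are therefore not typical of their branches. Capitals mark the AC elements ACCNACC and ACCNAAC, which R2R3 MYB proteins such as these regulators are known to bind, the G-box CACGTG, known for binding MYC proteins, and the W-boxes TTGACC and TTGACT, known for binding WRKY proteins, on either strand. The sequences are RefSeq TAIR10.1, read in the direction of the gene.
CYP83A1, chr4:7992430-7992679, minus strand: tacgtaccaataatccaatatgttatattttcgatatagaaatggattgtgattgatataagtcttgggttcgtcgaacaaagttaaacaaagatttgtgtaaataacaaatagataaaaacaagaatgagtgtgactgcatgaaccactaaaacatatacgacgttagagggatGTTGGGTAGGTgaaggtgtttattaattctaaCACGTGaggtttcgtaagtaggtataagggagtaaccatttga
IPMI2, chr2:17920397-17920646, plus strand: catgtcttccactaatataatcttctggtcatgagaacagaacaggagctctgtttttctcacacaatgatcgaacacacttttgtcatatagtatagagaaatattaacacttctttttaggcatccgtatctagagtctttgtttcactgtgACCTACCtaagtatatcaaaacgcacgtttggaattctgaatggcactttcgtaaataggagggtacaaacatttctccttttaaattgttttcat
CYP79F2, chr1:5604794-5605043, plus strand: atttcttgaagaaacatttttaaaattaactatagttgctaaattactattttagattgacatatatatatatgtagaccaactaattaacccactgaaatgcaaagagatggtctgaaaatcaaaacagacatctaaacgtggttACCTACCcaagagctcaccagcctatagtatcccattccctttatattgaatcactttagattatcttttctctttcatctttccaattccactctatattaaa
CYP81F2, chr5:23187590-23187839, plus strand: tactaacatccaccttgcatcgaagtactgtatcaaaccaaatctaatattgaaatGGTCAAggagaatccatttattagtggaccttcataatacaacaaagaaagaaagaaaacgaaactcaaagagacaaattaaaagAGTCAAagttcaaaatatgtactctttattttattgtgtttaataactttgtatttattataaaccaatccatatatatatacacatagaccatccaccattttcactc

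In the CYP83A1 window 1 ACCNACC and 1 ACCNAAC overlap each other on the reverse strand and a G-box follows, and in the CYP81F2 window both W-box forms lie on the reverse strand. Among the 20 aliphatic genes 7 windows (35%) held ACCNACC, in BAT5, IIL1, IPMI2, IPMI1, CYP79F2, CYP83A1 and SOT17, as did 1 of 3 shared and 1 of 10 indolic windows and 6.1% of the 27443 windows of all protein-coding genes. The form ACCNAAC was in 3 aliphatic windows (15%), in 1 shared window and in 14.5% of all windows. The G-box was in 2 aliphatic windows, those of IIL1 and CYP83A1, in the SUR1 window and in 6.49% of all windows. The W-box TTGACC was in 2 aliphatic and 1 indolic window and in 12.2% of all windows, and TTGACT in 1 aliphatic, 2 shared and 2 indolic windows and in 19.1% of all windows. The sulfur-response core GAGAC, not in capitals above, was in 4 aliphatic, 2 shared and 3 indolic windows and in 25.8% of all windows. These matches describe the letters of the windows.

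Chain elongation genes fell together, with MAM3 and IIL1 apart from the rest. MAM3 (AT5G23020, chr5:7718118-7721866, plus strand, named IMS2 in RefSeq) encodes a synthase that makes chains of all lengths, including long ones. The level of MAM3 in cat2shr was 4.71, 5.06 and 6.94 CPM at 24 h and 12.2, 7.57 and 9.89 CPM at 0 h. For cat2 the values were 0.0689, 0.171 and 0.285 CPM at 24 h and 11.9, 11.7 and 14.3 CPM at 0 h. In cat2 the 24 h libraries held 17 MAM3 counts in all. For shr the values were 9.25, 9.02 and 8.07 CPM at 24 h and 23.7, 25.1 and 15.2 CPM at 0 h. Col-0 libraries gave 0.295, 0.503 and 0.402 CPM at 24 h and 8.39, 8.20 and 14.2 CPM at 0 h. The 2 times overlapped in none of the genotypes, but at 24 h every cat2shr and shr library was above every cat2 and Col-0 library. MAM3 fell in all 4 (log2 -0.83 ± 0.24, edgeR adjusted p = 0.00497 in cat2shr; log2 -6.09 ± 0.37, edgeR adjusted p = 2.75e-11 in cat2; log2 -1.28 ± 0.23, edgeR adjusted p = 0.000254 in shr; log2 -4.67 ± 0.34, edgeR adjusted p = 1.71e-09 in Col-0). The difference of responses was 5.26 ± 0.45 for cat2shr minus cat2 (edgeR adjusted p = 1.49e-07) and 3.39 ± 0.42 for shr minus Col-0 (edgeR adjusted p = 2.24e-05). At 24 h MAM3 was higher in cat2shr than in cat2 by log2 4.91 ± 0.38 and in shr than in Col-0 by log2 4.45 ± 0.34, and at 0 h it was the 1 aliphatic gene higher in shr than in Col-0 (log2 1.06 ± 0.23).

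IIL1 (AT4G13430, chr4:7803863-7807984, minus strand) is the large isomerase subunit, which also serves leucine synthesis, and per length it was the most abundant member in Col-0 at 0 h, at 113 ± 8.7 CPM per kb (SD, n = 3). IIL1 stood at 212, 198 and 209.5 CPM in cat2shr at 24 h, against 157, 175 and 143 CPM in cat2shr at 0 h. Libraries of cat2 gave 131, 133 and 138 CPM at 24 h and 245, 218 and 210.0 CPM at 0 h. The 2 genotypes moved in opposite directions without overlap, up in cat2shr (log2 0.38 ± 0.08, edgeR adjusted p = 0.000359) and down in cat2 (log2 -0.75 ± 0.08, edgeR adjusted p = 7e-08). Libraries of shr gave 168, 147 and 156 CPM at 24 h and 174, 154 and 166 CPM at 0 h. For Col-0 the values were 182, 198 and 199.96 CPM at 24 h and 252, 223 and 220.4 CPM at 0 h. In shr the times overlapped with no call (log2 -0.07 ± 0.08, edgeR adjusted p = 0.518), and in Col-0 the small fall (log2 -0.26 ± 0.08, edgeR adjusted p = 0.00839) was not called without replicate 1 at either time. The other chain elongation members fell in all 4 genotypes. MAM1, which condenses the first rounds, changed by log2 -1.61 ± 0.25 in cat2shr, -3.17 ± 0.26 in cat2, -1.82 ± 0.25 in shr and -2.75 ± 0.26 in Col-0. The small isomerase subunits IPMI2 and IPMI1, which are specific to methionine, changed in cat2 by log2 -4.12 ± 0.41 and -5.07 ± 0.35. The transporter BAT5 changed by log2 -4.89 ± 0.37 in cat2 and -4.15 ± 0.36 in Col-0, the dehydrogenase IMD1 by log2 -3.81 ± 0.28 and -3.09 ± 0.28, and BCAT4 by log2 -3.36 ± 0.38 and -2.71 ± 0.37. The fall of BCAT4 in cat2shr (log2 -1.09 ± 0.37, edgeR adjusted p = 0.0151) was -1.78 without replicate 3 at 24 h and was not called without replicate 1 or 2 at 24 h. Replicate 3 of cat2shr at 24 h was high for several of these genes: in cat2shr IPMI2 changed by log2 -1.95 ± 0.38 (-2.75 without it) and BAT5 by log2 -2.83 ± 0.35 (-3.62 without it). In shr the small subunits changed by log2 -1.79 ± 0.37 and -2.47 ± 0.32, BAT5 by -2.15 ± 0.33 and IMD1 by -2.48 ± 0.27. All 8 chain elongation genes had a response above that of cat2 in cat2shr.

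In the aliphatic core, CYP83A1 (AT4G13770, chr4:7990429-7992429, minus strand) oxidises aliphatic aldoximes. At 24 h CYP83A1 measured 3.57, 4.71 and 9.49 CPM in cat2shr, against 43.9, 39.9 and 29.1 CPM in cat2shr at 0 h. Its cat2 values were 5.17, 8.44 and 7.21 CPM at 24 h and 206, 202 and 199.8 CPM at 0 h. Its shr values were 15.7, 16.0 and 10.3 CPM at 24 h and 74.6, 69.2 and 46.7 CPM at 0 h. Each pair was apart without overlap. Libraries of Col-0 gave 21.2, 14.4 and 11.8 CPM at 24 h and 185, 183 and 185 CPM at 0 h. There, too, the times did not overlap. CYP83A1 fell, with a log2 change of -2.67 ± 0.31 in cat2shr, -4.87 ± 0.33 in cat2, -2.18 ± 0.29 in shr and -3.54 ± 0.30 in Col-0 (edgeR adjusted p = 6.15e-07, 2.6e-10, 1.57e-05 and 2.55e-08). Before stress, CYP83A1 was lower in cat2shr than in cat2 (log2 -2.43 ± 0.29) and in shr than in Col-0 (log2 -1.54 ± 0.28).

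CYP79F2 (AT1G16400, chr1:5605044-5607498, plus strand), which accepts long-chain methionine derivatives, had the largest change of the core in cat2. Its level was 0.265, 0.471 and 0.429 CPM in cat2shr at 24 h and 1.46, 1.16 and 2.16 CPM in cat2shr at 0 h. In cat2 it was at 0.103, 0.273 and 0.142 CPM at 24 h and 12.6, 13.2 and 14.3 CPM at 0 h. In shr it was at 1.07, 0.994 and 0.506 CPM at 24 h and 2.04, 4.37 and 2.29 CPM at 0 h. The low 24 h levels rest on 16 counts over the 3 cat2 libraries. Its Col-0 values were 0.479, 0.348 and 0.0803 CPM at 24 h and 6.68, 6.20 and 9.85 CPM at 0 h. The times overlapped in none of the genotypes, and the falls were log2 -2.04 ± 0.41 in cat2shr, -6.25 ± 0.44 in cat2, -1.77 ± 0.36 in shr and -4.60 ± 0.42 in Col-0. Its neighbour CYP79F1, which accepts chains of all lengths, fell, with a log2 change of -3.32 ± 0.44 in cat2shr (-4.00 without replicate 3 at 24 h), -5.29 ± 0.47 in cat2 (-6.20 without replicate 2 at 24 h), -2.79 ± 0.42 in shr and -4.56 ± 0.46 in Col-0. The transcripts of CYP79F1 and CYP79F2 are 88.33% identical over 1817 bases with a longest shared run of 100 bases, so some reads may be assigned to either.

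SOT17 (AT1G18590, chr1:6398531-6400029, plus strand), a sulfotransferase of aliphatic glucosinolates, changed least of the core genes in cat2. The level of SOT17 in cat2shr was 13.3, 12.3 and 9.01 CPM at 24 h and 15.7, 14.2 and 13.9 CPM at 0 h. The cat2 libraries held 9.78, 8.16 and 5.07 CPM at 24 h and 35.5, 36.8 and 30.2 CPM at 0 h. Its change was not called in cat2shr (log2 -0.34 ± 0.24, edgeR adjusted p = 0.219) and was in cat2 (log2 -2.16 ± 0.24, edgeR adjusted p = 1.72e-07). The shr libraries held 8.14, 8.68 and 7.63 CPM at 24 h and 14.3, 27.8 and 14.9 CPM at 0 h. In Col-0 it was at 3.17, 3.41 and 2.09 CPM at 24 h and 21.9, 18.1 and 22.8 CPM at 0 h. It fell in shr (log2 -1.23 ± 0.24) and in Col-0 (log2 -2.85 ± 0.27), and its 24 h level was higher in both cat2 and shr than in Col-0 (in shr log2 1.49 ± 0.27). SOT18, a sulfotransferase as well, and UGT74C1 fell in all 4 genotypes, with log2 changes of -0.83 ± 0.11 and -1.15 ± 0.12 in cat2shr, -2.66 ± 0.12 and -2.53 ± 0.12 in cat2, -0.64 ± 0.11 and -0.81 ± 0.12 in shr and -0.92 ± 0.11 and -1.04 ± 0.12 in Col-0.

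Among side-chain genes, FMO GS-OX1 (AT1G65860, chr1:24498954-24502776, minus strand) oxidises the sulfur of the side chain. FMO GS-OX1 stood at 0.397, 0.353 and 1.88 CPM in cat2shr at 24 h, against 5.06, 5.54 and 7.14 CPM in cat2shr at 0 h. Levels in cat2 were 0.207, 0.888 and 0.370 CPM at 24 h and 31.6, 30.6 and 27.3 CPM at 0 h. Replicate 3 of cat2shr and replicate 2 of cat2 were the highest of their groups at 24 h. Levels in shr were 1.82, 1.85 and 0.949 CPM at 24 h and 6.52, 13.6 and 5.81 CPM at 0 h. The Col-0 libraries held 1.33, 0.813 and 0.803 CPM at 24 h and 23.1, 22.6 and 29.5 CPM at 0 h. Without overlap in any genotype, it fell, with a log2 change of -2.74 ± 0.48 in cat2shr, -5.94 ± 0.53 in cat2, -2.49 ± 0.45 in shr and -4.66 ± 0.49 in Col-0. The fall was -3.99 in cat2shr without replicate 3 at 24 h and -6.64 in cat2 without replicate 2 at 24 h. FMO GS-OX3 (AT1G62560), of the same family, stood at 0.448, 1.20 and 0.513 CPM in cat2 at 24 h and 29.9, 21.1 and 19.1 CPM in cat2 at 0 h. In cat2shr it stood at 1.03, 0.706 and 2.28 CPM at 24 h and 7.88, 7.68 and 6.83 CPM at 0 h. In shr it stood at 3.29, 1.85 and 2.09 CPM at 24 h and 12.7, 11.9 and 9.62 CPM at 0 h, and in Col-0 at 1.59, 0.774 and 0.803 CPM at 24 h and 27.5, 23.4 and 21.2 CPM at 0 h. It fell in all 4 genotypes, with log2 changes of -2.47 ± 0.35 in cat2shr (-3.12 without replicate 3 at 24 h), -5.03 ± 0.39 in cat2, -2.24 ± 0.33 in shr and -4.50 ± 0.37 in Col-0. AOP2, known in other ecotypes for making alkenyl side chains and annotated in RefSeq as a transcribed pseudogene in this one, fell, with a log2 change of -4.37 ± 0.51 in cat2shr (-5.42 without replicate 3 at 24 h), -5.83 ± 0.45 in cat2 (-7.00 without replicate 2 at 24 h), -3.09 ± 0.44 in shr and -5.94 ± 0.47 in Col-0.

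The 3 shared genes fell less than most aliphatic genes, and in cat2shr they were not called lower. GGP1 (AT4G30530, chr4:14920376-14922519, plus strand) trims the glutathione conjugate. At 24 h GGP1 measured 359, 343 and 246 CPM in cat2shr, against 190.2, 203 and 169 CPM in cat2shr at 0 h. For cat2 the values were 175, 193 and 133 CPM at 24 h and 224, 291 and 252 CPM at 0 h. The direction was opposite without overlap, a rise in cat2shr (log2 0.75 ± 0.24, edgeR adjusted p = 0.00968) and a fall in cat2 (log2 -0.61 ± 0.24, edgeR adjusted p = 0.0261). For shr the values were 162, 133 and 124 CPM at 24 h and 175, 371 and 179.9 CPM at 0 h. Levels in Col-0 were 65.2, 63.4 and 47.8 CPM at 24 h and 86.9, 92.6 and 117 CPM at 0 h. It fell in shr (log2 -0.79 ± 0.24; -0.32 without replicate 2 at 0 h) and in Col-0 (log2 -0.75 ± 0.24), and each of these 4 calls was lost without some single library. The response was above that of cat2 in cat2shr (difference 1.37 ± 0.34, edgeR adjusted p = 0.00482) and above that of shr in cat2shr (difference 1.55 ± 0.34, edgeR adjusted p = 0.00197). Relative to Col-0, GGP1 was higher in cat2 (log2 1.51 ± 0.24 at 24 h and 1.37 ± 0.24 at 0 h) and in shr (log2 1.25 ± 0.24 at 24 h and 1.29 ± 0.24 at 0 h).

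SUR1 (AT2G20610), the C-S lyase, showed the largest fall of the 3 in cat2. Its level was 91.9, 80.4 and 67.0 CPM in cat2shr at 24 h and 74.2, 71.3 and 76.6 CPM in cat2shr at 0 h. Libraries of cat2 gave 52.2, 56.0 and 35.4 CPM at 24 h and 139, 169 and 141 CPM at 0 h. The times overlapped in cat2shr with no call (log2 0.11 ± 0.16, edgeR adjusted p = 0.585), and not in cat2 (log2 -1.64 ± 0.17, edgeR adjusted p = 4.24e-08). Libraries of shr gave 62.9, 56.6 and 54.5 CPM at 24 h and 68.3, 102 and 72.3 CPM at 0 h. Col-0 libraries gave 40.3, 39.3 and 31.6 CPM at 24 h and 77.2, 82.5 and 95.9 CPM at 0 h. SUR1 fell in shr (log2 -0.48 ± 0.17; -0.26 and not called without replicate 2 at 0 h, nor without 2 or 3 at 24 h) and in Col-0 (log2 -1.20 ± 0.17). UGT74B1 changed by log2 -0.20 ± 0.16 in cat2shr, which was not called, and fell, with a log2 change of -1.48 ± 0.16 in cat2, -0.85 ± 0.16 in shr and -1.35 ± 0.17 in Col-0.

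The 3 indolic regulators moved apart from each other. MYB51 (AT1G18570, chr1:6389399-6391386, plus strand), known for indolic synthesis after pathogen signals, rose in all 4 genotypes. The level of MYB51 in cat2shr was 35.7, 33.8 and 23.6 CPM at 24 h and 25.1, 19.3 and 11.6 CPM at 0 h. Its cat2 values were 102, 112 and 88.3 CPM at 24 h and 14.5, 13.3 and 6.88 CPM at 0 h. In cat2shr 1 library of each time overlapped, and in cat2 every 24 h library was far above every 0 h library. Its shr values were 23.6, 27.2 and 22.7 CPM at 24 h and 13.4, 16.6 and 14.1 CPM at 0 h. For Col-0 the values were 34.2, 38.5 and 26.6 CPM at 24 h and 6.26, 7.22 and 6.71 CPM at 0 h. The rises were log2 0.73 ± 0.25, edgeR adjusted p = 0.0151 in cat2shr, log2 3.13 ± 0.27, edgeR adjusted p = 4.42e-09 in cat2, log2 0.74 ± 0.25, edgeR adjusted p = 0.0252 in shr and log2 2.30 ± 0.27, edgeR adjusted p = 8.12e-07 in Col-0. The calls in cat2shr and shr were each lost without any of 3 single libraries. The response was weaker in cat2shr than in cat2 (difference -2.39 ± 0.36, edgeR adjusted p = 7.37e-05) and in shr than in Col-0 (difference -1.56 ± 0.36, edgeR adjusted p = 0.00448).

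MYB34 (AT5G60890, chr5:24494291-24496371, plus strand), known for basal indolic synthesis, fell in all 4 genotypes. MYB34 stood at 3.49, 3.82 and 3.89 CPM in cat2shr at 24 h, against 9.11, 8.22 and 11.9 CPM in cat2shr at 0 h. In cat2 it was at 2.51, 1.61 and 3.08 CPM at 24 h and 38.1, 44.1 and 56.1 CPM at 0 h. The cat2 libraries at 0 h were the highest and the cat2 libraries at 24 h the lowest of all 24. In shr it was at 12.0, 9.36 and 8.51 CPM at 24 h and 15.2, 35.4 and 13.6 CPM at 0 h. Libraries of Col-0 gave 9.51, 5.27 and 5.50 CPM at 24 h and 25.6, 29.4 and 31.3 CPM at 0 h. The falls were log2 -1.38 ± 0.33 in cat2shr, -4.25 ± 0.35 in cat2, -1.11 ± 0.30 in shr and -2.09 ± 0.32 in Col-0. In shr the 2 times did not overlap, but the fall was -0.51 and not called (edgeR adjusted p = 0.106) without replicate 2 at 0 h. The response was stronger in cat2 than in Col-0 (difference -2.17 ± 0.46, edgeR adjusted p = 0.0011) and weaker in cat2shr than in cat2 (difference 2.87 ± 0.47, edgeR adjusted p = 0.000188). MYB122 (AT1G74080, chr1:27855578-27857598, plus strand), the third regulator, was barely detected at 0 h. At 24 h MYB122 measured 1.38, 1.35 and 0.724 CPM in cat2shr, against 0.195, 0.0362 and 0.275 CPM in cat2shr at 0 h. The cat2 libraries held 1.69, 2.66 and 0.826 CPM at 24 h and 0, 0.101 and 0.128 CPM at 0 h. It rose in both (log2 2.72 ± 0.62 in cat2shr and 4.41 ± 0.69 in cat2, or 3.80 without cat2 replicate 1 at 0 h). The shr libraries held 0.130, 0.0686 and 0.0633 CPM at 24 h and 0.0340, 0.390 and 0.276 CPM at 0 h. Its Col-0 values were 0.258, 0.155 and 0.201 CPM at 24 h and 0, 0 and 0.0388 CPM at 0 h. The change in shr was not called (log2 -1.44 ± 0.81), and Col-0 at 0 h held 1 count, so no fold is given for Col-0, although edgeR called MYB122 there. The response of cat2shr was above that of shr (difference 4.16 ± 1.02, edgeR adjusted p = 0.00409; 3.56 without replicate 2 of shr at 0 h).

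The 4 indolic core genes were lower or not called at 24 h in each genotype. CYP79B2 (AT4G39950, chr4:18525042-18527602, plus strand) and CYP79B3 (AT2G22330, chr2:9488413-9491404, plus strand) make indole-3-acetaldoxime, which also feeds camalexin and some auxin. CYP79B2 was at 19.5, 16.7 and 11.1 CPM in cat2shr at 24 h and 46.0, 21.7 and 25.9 CPM in cat2shr at 0 h. Levels in cat2 were 40.1, 43.3 and 18.9 CPM at 24 h and 89.3, 91.9 and 86.4 CPM at 0 h. Levels in shr were 19.8, 19.5 and 16.8 CPM at 24 h and 22.1, 54.6 and 39.2 CPM at 0 h. The 24 h libraries of these 3 genotypes were all above those of Col-0. In Col-0 it was at 2.62, 3.64 and 1.65 CPM at 24 h and 29.9, 36.7 and 54.0 CPM at 0 h. The fall was -0.99 ± 0.36 on the log2 scale in cat2shr, -1.39 ± 0.36 in cat2, -1.05 ± 0.36 in shr and -3.92 ± 0.43 in Col-0. It was weaker in cat2 than in Col-0 (difference 2.53 ± 0.55, edgeR adjusted p = 0.00149) and in shr than in Col-0 (difference 2.88 ± 0.56, edgeR adjusted p = 0.00136). The calls in cat2shr and shr were lost without single libraries, in shr without any of 5 (log2 -0.70 without replicate 2 at 0 h).

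CYP79B3 had the highest 0 h levels in cat2. Its level was 5.43, 5.12 and 5.23 CPM in cat2shr at 24 h and 8.92, 7.50 and 15.3 CPM in cat2shr at 0 h. For cat2 the values were 12.0, 10.8 and 8.12 CPM at 24 h and 108, 111 and 120.0 CPM at 0 h. The cat2shr change was not called (log2 -1.01 ± 0.49, edgeR adjusted p = 0.0821) although its libraries did not overlap, and the cat2 fall was called (log2 -3.46 ± 0.49, edgeR adjusted p = 4.79e-06). For shr the values were 9.09, 6.72 and 4.65 CPM at 24 h and 14.2, 59.4 and 11.7 CPM at 0 h. The Col-0 libraries held 15.6, 10.6 and 11.8 CPM at 24 h and 28.8, 38.8 and 61.0 CPM at 0 h. It fell in shr (log2 -2.06 ± 0.48, and -0.90 without replicate 2 at 0 h) and in Col-0 (log2 -1.76 ± 0.47). The response was stronger in cat2 than in Col-0 (difference -1.70 ± 0.65, edgeR adjusted p = 0.0486, which was lost without any of 10 single libraries). It was weaker in cat2shr than in cat2 (difference 2.45 ± 0.68, edgeR adjusted p = 0.011). At 0 h CYP79B3 was lower in cat2shr than in cat2 (log2 -3.41 ± 0.49). The difference of responses between cat2 and Col-0 was positive for CYP79B2 and negative for CYP79B3.

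CYP83B1 (AT4G31500, chr4:15273410-15275404, minus strand) oxidises the indolic aldoxime and, per length, was the most abundant indolic gene in Col-0 at 0 h. The level of CYP83B1 in cat2shr was 207, 185 and 133 CPM at 24 h and 287, 253 and 282 CPM at 0 h. Libraries of cat2 gave 185, 172 and 111 CPM at 24 h and 318, 391 and 376 CPM at 0 h. Libraries of shr gave 182, 159.9 and 136 CPM at 24 h and 195, 333 and 240.5 CPM at 0 h. Each pair was apart without overlap. Levels in Col-0 were 71.7, 75.6 and 45.5 CPM at 24 h and 115, 136 and 172 CPM at 0 h. Those, too, were apart. CYP83B1 fell, with a log2 change of -0.64 ± 0.23 in cat2shr (-0.51 and not called without replicate 3 at 24 h), -1.21 ± 0.23 in cat2, -0.69 ± 0.23 in shr (-0.43 and not called without replicate 2 at 0 h, nor without 2 or 3 at 24 h) and -1.13 ± 0.23 in Col-0. At 24 h it was higher in cat2 than in Col-0 (log2 1.28 ± 0.24) and in shr than in Col-0 (log2 1.31 ± 0.24), and at 0 h likewise (log2 1.36 ± 0.23 and 0.86 ± 0.23). SOT16 (AT1G74100), the indolic sulfotransferase, was not called in any of the 4 stress responses. SOT16 stood at 76.3, 67.6 and 53.4 CPM in cat2shr at 24 h, against 74.8, 83.1 and 85.6 CPM in cat2shr at 0 h. Its cat2 values were 98.7, 81.5 and 56.1 CPM at 24 h and 98.8, 118 and 116 CPM at 0 h. Its shr values were 65.6, 57.4 and 54.5 CPM at 24 h and 60.1, 133 and 70.8 CPM at 0 h. The times overlapped in cat2shr and shr. Col-0 libraries gave 34.5, 35.7 and 22.0 CPM at 24 h and 39.0, 40.7 and 54.6 CPM at 0 h. Its changes were log2 -0.30 ± 0.25 in cat2shr, -0.50 ± 0.25 in cat2, -0.57 ± 0.26 in shr and -0.54 ± 0.26 in Col-0, and relative to Col-0 its level was higher in cat2 (log2 1.36 ± 0.26 at 24 h and 1.31 ± 0.26 at 0 h).

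**Figure D5:**
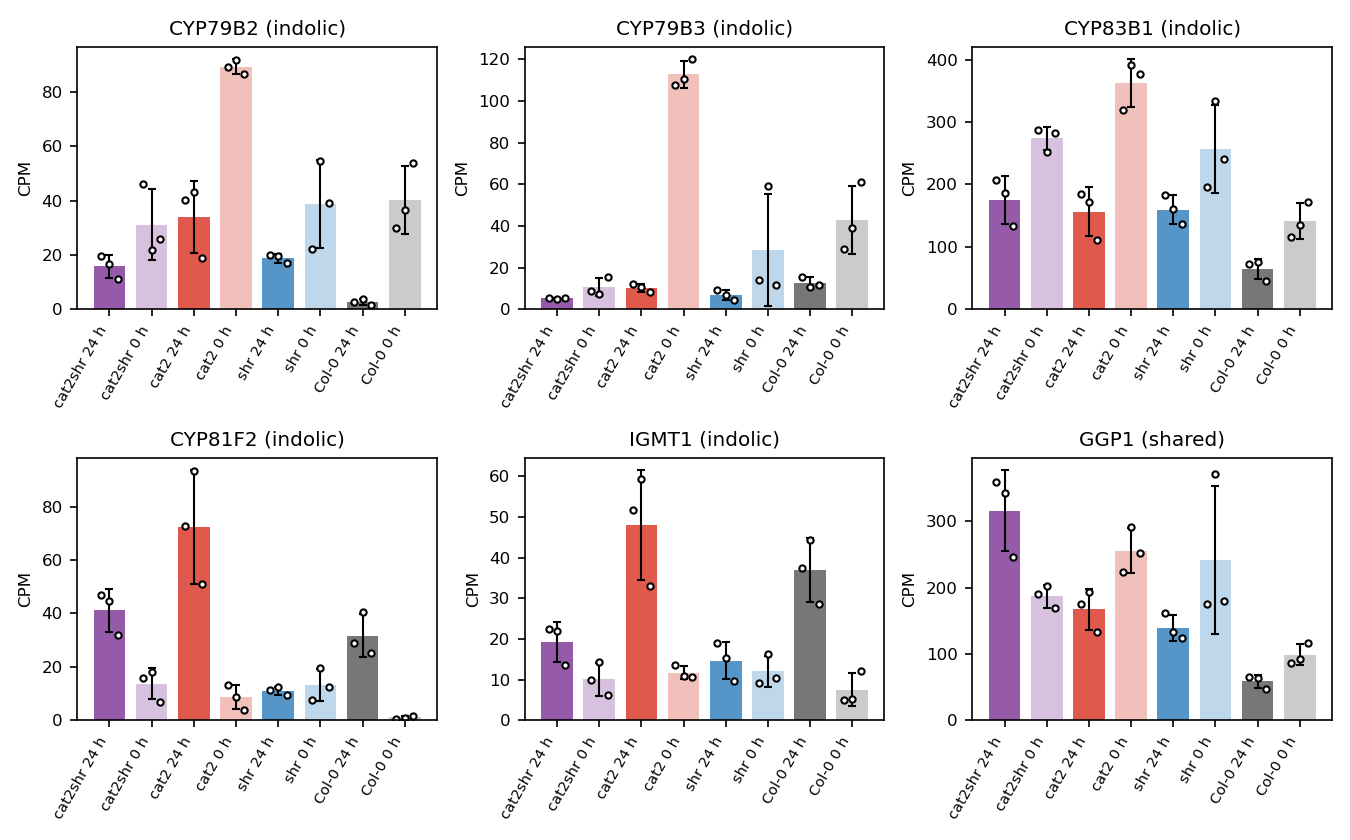
CPM of 5 indolic enzymes and of GGP1 in each library, with bars for group means, error bars of 1 SD (n = 3) and open points for libraries, darker bars for 24 h and lighter for 0 h. CYP79B2, CYP79B3 and CYP83B1 are highest in cat2 at 0 h, CYP81F2 and IGMT1 are highest in cat2 at 24 h, and in shr at 0 h 1 library of CYP79B3 (59.4 CPM) and of GGP1 (371 CPM) lies far above the others.

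Genes that modify the indole ring rose in cat2shr, cat2 and, for 2 of 3, Col-0, and none was called in shr. CYP81F2 (AT5G57220, chr5:23187840-23189902, plus strand) hydroxylates indole glucosinolates for defence against fungi. At 24 h CYP81F2 measured 46.9, 44.5 and 32.1 CPM in cat2shr, against 15.9, 18.1 and 6.97 CPM in cat2shr at 0 h. In cat2 it was at 72.6, 93.4 and 51.0 CPM at 24 h and 13.2, 8.73 and 4.00 CPM at 0 h. Every 24 h library of these genotypes was above every 0 h library. In shr it was at 11.3, 12.3 and 9.46 CPM at 24 h and 7.74, 19.5 and 12.4 CPM at 0 h. For Col-0 the values were 29.0, 40.7 and 25.2 CPM at 24 h and 0.549, 0.841 and 1.74 CPM at 0 h. CYP81F2 rose in cat2shr (log2 1.59 ± 0.41, edgeR adjusted p = 0.00255), in cat2 (log2 3.07 ± 0.44, edgeR adjusted p = 4.55e-06) and in Col-0 (log2 4.95 ± 0.54, edgeR adjusted p = 4.76e-07), and was not called in shr (log2 -0.27 ± 0.42, edgeR adjusted p = 0.628). Col-0 at 0 h was the lowest group, and without its replicate 3 at 0 h the log2 change in Col-0 was 5.55, the 0 h values against Col-0 were 3.68 for cat2 and 4.31 for shr, and the difference of responses of cat2 minus Col-0 was -2.55. At 0 h, CYP81F2 was higher in cat2 than in Col-0 (log2 3.08 ± 0.55) and in shr than in Col-0 (log2 3.70 ± 0.54), and at 24 h it was higher in cat2 than in Col-0 (log2 1.19 ± 0.40, lost without any of 3 single libraries) and lower in shr than in Col-0 (log2 -1.52 ± 0.42). The response was weaker in shr than in Col-0 (difference -5.22 ± 0.69, edgeR adjusted p = 5.86e-05) and in cat2 than in Col-0 (difference -1.88 ± 0.69, edgeR adjusted p = 0.0383, lost without any of 6 single libraries). It was above that of shr in cat2shr (difference 1.87 ± 0.58, edgeR adjusted p = 0.0198, 0.0768 without replicate 2 of shr at 0 h).

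CYP81F1 (AT4G37430, chr4:17597110-17598958, plus strand), of the same family, was low throughout. Its level was 3.49, 4.68 and 4.72 CPM in cat2shr at 24 h and 1.75, 1.41 and 2.44 CPM in cat2shr at 0 h. The cat2 libraries held 1.52, 1.78 and 1.25 CPM at 24 h and 0.771, 1.11 and 0.799 CPM at 0 h. It rose in cat2shr (log2 1.20 ± 0.25) and in cat2 (log2 0.75 ± 0.28, lost without any of 3 single libraries). The shr libraries held 1.34, 1.75 and 2.72 CPM at 24 h and 1.63, 2.76 and 2.23 CPM at 0 h. Libraries of Col-0 gave 0.922, 0.968 and 0.642 CPM at 24 h and 0.775, 0.771 and 0.814 CPM at 0 h. The times overlapped in shr and Col-0, and neither change was called (log2 -0.19 ± 0.25 in shr and 0.11 ± 0.31 in Col-0). IGMT1, which methylates the hydroxylated ring, rose in cat2shr (log2 0.94 ± 0.37, lost without any of 4 single libraries), in cat2 (log2 2.03 ± 0.37) and in Col-0 (log2 2.31 ± 0.38), and was not called in shr (log2 0.29 ± 0.36). IGMT1 is 91.02% identical to IGMT4 over 1303 bases, with a longest shared run of 149 bases, so its counts may include reads of related copies.

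Several members lie side by side. CYP79F2 and CYP79F1, MYB29 and MYB76, MAM1 and MAM3, and SOT18 and SOT16 are direct neighbours, with gaps of 1183, 1442, 11144 and 151 bases. SOT16 and SOT18 lie on opposite strands, and in cat2 SOT18 fell (log2 -2.66 ± 0.12) while SOT16 was not called (log2 -0.50 ± 0.25). MYB51 and SOT17, and MYB122 and SOT18, each have 1 gene between them. IMD1 shares runs of up to 95 bases with the related IMD3, and apart from CYP79F1, CYP79F2 and IGMT1 no other member shared a run over 38 bases with its nearest copy. The exons of CYP81F1 overlap the opposite-strand locus AT4G37432 over 1735 bases, and those of BCAT4 overlap IKU2 over 307 bases. Shorter overlaps join IMD1 with AT5G14210 (25 bases, 28315 counts for AT5G14210 over all 24 libraries) and UGT74C1 with AT2G31800 (40 bases, 92663 counts) on the opposite strand, and SOT18 with AT1G74088 (9 bases, 2023 counts) on the same strand. UGT74C1 also overlaps the opposite-strand locus AT2G08470 over 265 bases, and that locus was not analysed here. The strand setting of the counting is not given in the sources used here, so reads of such overlapping genes cannot be told apart. AT4G37432 held 7 counts and IKU2 0 over all 24 libraries.

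Levels of members can be set beside each other per length, as CPM per kb of exon. In Col-0 at 0 h the order from the top was IIL1 (113 ± 8.7), CYP83A1 (96.5 ± 0.54), MAM1 (96.4 ± 11), GGP1 (81.3 ± 13) and CYP83B1 (74.2 ± 15, SD, n = 3 each), and neighbours in this order lay within their spread of each other apart from IIL1 and CYP83A1. In cat2 at 24 h the order was GGP1 (137 ± 26), CYP83B1 (82.2 ± 21), IIL1 (65.1 ± 1.7), SOT16 (58.4 ± 16), MYB51 (56.5 ± 6.7) and CYP81F2 (40.9 ± 12). CYP83A1 was then at 3.63 ± 0.87 CPM per kb. At the low end CYP79F2 (0.0857 ± 0.044 CPM per kb), MAM3 (0.0956 ± 0.059) and MYB76 (0.114 ± 0.083) lay within their spread of each other, on 16, 17 and 17 counts over the 3 libraries.

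Of 50 other genes of glucosinolate breakdown, transport, sulfate supply, upstream regulation and accessory synthesis, 47 passed the filter. In the stress response of cat2shr 11 fell and 16 rose (median log2 -0.06), where 64.4% of all genes tested were called in either direction. In cat2 21 fell and 18 rose (median log2 -0.30; 75% of all genes), in shr 23 fell and 6 rose (median log2 -0.39; 41.3%), and in Col-0 20 fell and 15 rose (median log2 -0.31; 59.3%). The genes with the 2 smallest adjusted p were, in cat2shr, SLIM1, a sulfur-limitation regulator (log2 1.44 ± 0.12, edgeR adjusted p = 1.04e-08), and IQD1, a calmodulin-binding protein (log2 -1.53 ± 0.14, edgeR adjusted p = 1.58e-08). In cat2 they were ESP, which directs breakdown towards nitriles and similar products (log2 -3.24 ± 0.22, edgeR adjusted p = 1.78e-10), and BCAT3, a transaminase of chain elongation (log2 -1.03 ± 0.08, edgeR adjusted p = 1e-09). In shr they were ESP (log2 -1.95 ± 0.20, edgeR adjusted p = 7.46e-07) and IMD3, the leucine-pathway relative of IMD1 (log2 0.62 ± 0.07, edgeR adjusted p = 1.3e-06), which rose while IMD1 fell. In Col-0 they were GSTU20, a glutathione S-transferase linked to aliphatic synthesis (log2 -2.97 ± 0.26, edgeR adjusted p = 2.53e-08), and SDI2, of the sulfur-deficiency-induced family (log2 -2.03 ± 0.19, edgeR adjusted p = 3.07e-08). The myrosinases TGG1 and TGG2, which break glucosinolates down, were not called in cat2shr, cat2 or Col-0 (in cat2 log2 -0.16 ± 0.08 and -0.02 ± 0.09) and fell in shr (log2 -0.35 ± 0.08 and -0.36 ± 0.09).

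SDI1, a repressor of aliphatic synthesis through MYB28 that is induced by sulfur shortage, was high in both genotypes that carry shr; it was chosen after its values were seen. The level of SDI1 in cat2shr was 201, 145 and 146 CPM at 24 h and 77.3, 112 and 83.8 CPM at 0 h. Levels in cat2 were 4.31, 3.25 and 6.24 CPM at 24 h and 3.89, 7.55 and 6.24 CPM at 0 h. Levels in shr were 60.1, 67.8 and 58.3 CPM at 24 h and 80.0, 70.2 and 47.1 CPM at 0 h. Every cat2shr and shr library was above every cat2 and Col-0 library. Its Col-0 values were 0.369, 0.155 and 0.161 CPM at 24 h and 1.07, 1.26 and 1.98 CPM at 0 h. SDI1 was higher in cat2shr than in cat2 at 24 h (log2 5.14 ± 0.29) and 0 h (log2 3.95 ± 0.28), and relative to Col-0 it was higher in shr (log2 8.04 ± 0.41 at 24 h and 5.53 ± 0.32 at 0 h). In the stress responses SDI1 rose in cat2shr (log2 0.85 ± 0.24) and fell in Col-0 (log2 -2.59 ± 0.59), and it was not called in cat2 or shr. The 24 h value of shr against Col-0 and the fall in Col-0 rest on few counts in Col-0 at 24 h.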

How the data were processed

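RNA from 24 shoot samples was sequenced by the submitters after TRIzol and RNeasy extraction and stranded TruSeq library preparation, per the labels' protocols. The deposited table holds raw read counts per TAIR10 locus. Per the submitters' processing notes the authors used Trim Galore 0.3.3, TopHat2 2.1.0 and featureCounts (Subread 1.4.6) with the TAIR10 build, and the strand setting is not given in the sources used here. Reads that match several loci may be lost or split, which bears on close copies.

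From the counts, genes were filtered with filterByExpr (20347 of 33602 loci kept, 6798 at 0 throughout), scaled by TMM and fitted with edgeR 4.0.16 in R 4.3.3 (robust glmQLFit, glmQLFTest), with 1 mean for each of 8 groups over all 24 libraries. Benjamini-Hochberg adjustment ran over all genes tested in each of 14 comparisons, and SE is the log2 change divided by the root of F. The code was tested on simulated data. Logarithms for display used CPM + 0.1. The labels do not say that replicates came from separate plants or cultures, so p-values reflect no more than how these samples vary among themselves, which may be technical. Positions, promoter windows and transcript comparisons (blastn 2.17.0) used RefSeq TAIR10.1, in which all 33 members matched, 30 under the same symbol. Members named with values in every library are the 6 MYB genes and, in each other role, those with the highest mean level, the largest and the smallest change in cat2, and those called against the direction of their branch. The members and lists were chosen with earlier results of these data known. Alternatives were other scalings, other filters, DESeq2 1.42.0, a replicate block, fits to the groups compared alone, and leaving out libraries. A gene that the rule for similar patterns also picked is not reported here.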

Additional observations from a re-analysis of the deposited data

Results flagged for a closer look

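The stress responses, 24 h over 0 h, differed between genotypes by the edgeR test of the difference itself for 24 members in cat2shr against cat2, 8 in cat2shr against shr, 19 in shr against Col-0 and 9 in cat2 against Col-0. Of all genes tested, the same test called 30.9%, 35.3%, 25.7% and 38.2% in these comparisons, in the same order. Positive differences mean a higher log2 change in the genotype named first. For cat2shr minus cat2 they were 5.26 for MAM3, 2.87 for MYB34, 2.45 for CYP79B3, 1.37 for GGP1, 1.35 for MYB29, 1.31 for MYB28 and -2.39 for MYB51. For cat2shr minus shr they were 4.16 for MYB122, 1.87 for CYP81F2, 1.55 for GGP1 and -0.91 for MYB28. For shr minus Col-0 they were 3.39 for MAM3, 2.88 for CYP79B2, 2.22 for MYB29, 1.21 for MYB28, -1.56 for MYB51 and -5.22 for CYP81F2. For cat2 minus Col-0 they were 2.53 for CYP79B2, -1.01 for MYB28, -1.70 for CYP79B3, -1.88 for CYP81F2 and -2.17 for MYB34. These comparisons share groups, so they are not independent of each other.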

How the results depend on the processing

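Over the settings other than leaving out 1 library, 2225 of 2275 called values of members kept their call and direction, 50 lost the call, 0 changed sign, and 49 uncalled values became called. With 1 library left out at a time, 1908 of 2088 kept the call, 180 lost it and 0 changed sign. The counts of members called moved by over 1.5 times in 2 comparisons: cat2 against Col-0 at 0 h (14 with all libraries) ranged from 8 to 14, and the difference of responses of cat2shr minus shr (8 with all libraries) from 5 to 13; the cause was not tested. Pooled over all genes, deviations of same-numbered replicates had correlations of -0.278 to 0.417 (median 0.0558, 84 pairs of libraries of different groups). Pairs with other numbers had -0.503 to 0.436 (median -0.0352, 168 pairs). At 24 h replicate 3 was lowest for indolic members in each genotype. Its median log2 against the other libraries was -0.52 in cat2shr, -0.67 in cat2, -0.26 in shr and -0.44 in Col-0. Its mesophyll marker sum was the highest in each 24 h group. At 0 h replicate 3 lay above the others in some genotypes and below in others. Pooled correlations cannot show a set shared within 1 time, so whether the numbers pair samples is not settled. With a replicate block, 286 of 288 calls remained, 2 were lost (BCAT4 in shr against Col-0 at 24 h, edgeR adjusted p = 0.0588, and CYP79B3 in the difference of cat2 minus Col-0, edgeR adjusted p = 0.0621) and 5 were gained, and the members called in the 4 stress responses numbered 28 in cat2shr, 32 in cat2, 26 in shr and 31 in Col-0. Fits to the groups compared alone lost 19 of 282 calls. Scaling by library size alone lost 10 of 288 calls of members but moved the balance over all genes: the share of calls that were higher was 40% (50.8% with TMM) in the cat2shr response, 65.2% (49.4%) in the shr response, 83.1% (49.5%) for cat2 against Col-0 and 60.6% (46.9%) for shr against Col-0 at 0 h, 64.4% (49%) for shr against Col-0 at 24 h, and 32.3% (49.2%) and 23.2% (49.5%) for the differences of cat2 minus Col-0 and cat2shr minus shr. The largest shift of the median of all genes under that scaling was to -0.242, in the last of these. Genes with few counts, such as MYB76, MYB122, MAM3, CYP79F2 and AOP2 at their low times, are limited by depth.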

Other observations

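Outside the pathway lists, the genes whose log2 CPM over the 8 group means was most like the mean of the aliphatic members included CDKB2;1 (Pearson r = 0.988), AT4G09500 (0.988), AT1G54385 (0.984) and AT1G47900 (0.983). CDKB2;1, a cyclin-dependent kinase of the cell cycle, averaged 5.41 CPM in cat2shr at 24 h and 9.91 CPM at 0 h, 4.31 CPM in cat2 at 24 h and 15.9 CPM at 0 h, 7.11 CPM in shr at 24 h and 11.6 CPM at 0 h, and for Col-0 6.05 CPM with stress and 19.2 CPM without. For the mean of the indolic members they were AGC2-1 (r = 0.967), WRKY18 (0.937), GSTU9 (0.937), AT2G18193 (0.933) and ABCB4 (0.925). The indolic mean joins genes that rose with genes that fell under stress, so likeness to it need not hold for each member. ABCB4, a transporter of the ABC family, averaged 80.9 CPM in cat2shr at 24 h and 21.3 CPM at 0 h, 552 CPM in cat2 at 24 h and 85.6 CPM at 0 h, 10.4 CPM in shr at 24 h and 43.3 CPM at 0 h, and for Col-0 14.6 CPM with stress and 4.97 CPM without. These likenesses are descriptions over 8 points that share libraries. The genes were picked for them out of the tested genes outside all lists that averaged 5 CPM or more.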
